A study of Drosophila melanogaster with 2 samples.

Results

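The 10 genes of tracheal branching and fibroblast growth factor (FGF) signalling followed here through the Ftz-F1 peak lists were bnl, btl, stumps, sty, trh, vvl, pnt, esg, dys and Mmp1. They were chosen by name, with earlier results of these data known, as 10 of the 13945 protein-coding genes on the analysed chromosome arms. A summit was given to a gene when it lay in the gene body or up to 2000 bp upstream. The chromatin came from whole embryos of mixed sex, 0 to 24 hours old, of a fly line with a transgene for Ftz-F1 carrying enhanced green fluorescent protein (eGFP) at its C-terminus. Binding was measured by chromatin immunoprecipitation sequencing with an antibody to green fluorescent protein. There was 1 group of 2 biological replicates, numbered 1 and 4, which were separate biosamples of 1 fly line. How the collections of embryos differed is not stated, so the spread between the replicates may be technical. All embryonic tissues were pooled, and a summit cannot be placed in tracheal cells or in any other cell type. Ftz-F1 is an orphan nuclear receptor known from segmentation and from the response to the steroid hormone ecdysone.

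The tracheal system is the branched network of air tubes of the fly. The FGF Branchless (bnl) is made by cells around the tracheal placodes and attracts tracheal cells that carry the receptor Breathless (btl). Stumps is an adaptor that links FGF receptors to the Ras and MAP kinase cascade, Pointed (pnt) is an ETS-family transcription factor that acts downstream of that cascade, and Sprouty (sty) is an inhibitor that limits branching from inside the receiving cells. Trachealess (trh) and Ventral veinless (vvl) are transcription factors of tracheal cell fate. Escargot (esg) and Dysfusion (dys) act in the fusion cells that join branches, and Mmp1 is a matrix metalloproteinase.

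The data were read from 4 lists, all in the genome build dm6. The thresholded list holds 3960 peaks kept by the authors with an irreproducible discovery rate (IDR) analysis of both replicates, and its entries are called IDR summits here. The other lists hold 30000 entries each, peaks and background regions together, for the pooled replicates and for each replicate alone. Ranks count from 1, the strongest signal value of a list. The signal value of a peak comes from the authors, who state no scale for it, and read depth is unknown, so a gene without a summit is only a gene without a listed summit. The IDR summits took pooled ranks 1 to 3960, with signal values from 91.8 to 3557 and a median of 131.

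Of the 10 genes, 6 held an IDR summit, namely bnl, stumps, sty, vvl, pnt and Mmp1, against 26.1% of all protein-coding genes. These genes are long, with a median length of 22951 bp against 2166 bp for protein-coding genes, and long genes hold summits more often. Of the 6 members of at least 20 kb, 4 held an IDR summit, and of the 1013 protein-coding genes of that length 47.6% did. Of the 4 shorter members, vvl and Mmp1 held one, where the share over protein-coding genes of all lengths was 26.1%. The 10 genes held 12 IDR summits, with 4 each in sty and pnt and 1 each in the other 4 genes. Their signal values ran from 94.8 to 221 with a median of 141, and 7 of the 12 lay above the list median.

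**Figure D1:**
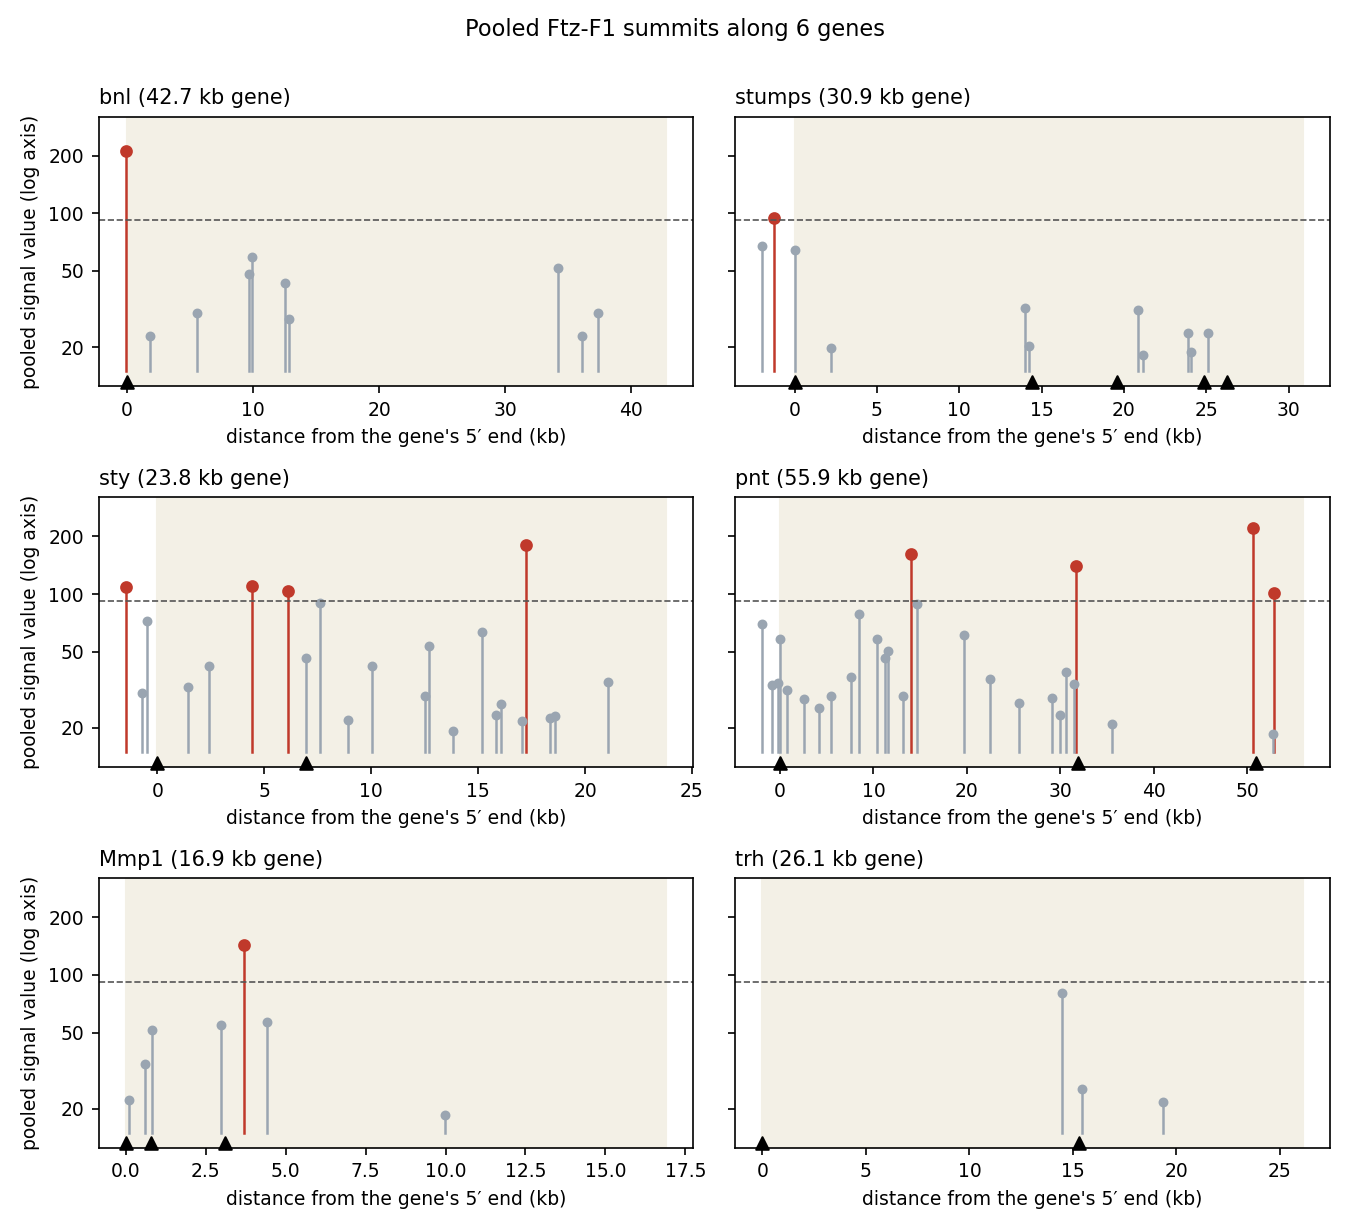
Each vertical line is a pooled Ftz-F1 summit, plotted by its distance from the gene's 5′ end (kb) and its signal value (log axis). Red marks the IDR summits and grey the summits below the IDR threshold, black triangles mark transcript starts, the shaded span is the gene body, and the dashed line is the lowest IDR signal value of 91.8. Single strong summits stand at bnl and Mmp1, 4 each are spread over sty and pnt, and the highest summit of trh stays under the line at 80.4.

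The ligand gene bnl (FBgn0014135, 3R, 19794073 to 19836817, minus strand, 42.7 kb) had a strong summit at its promoter and weak summits elsewhere. All 3 annotated transcripts begin at 1 start, and the IDR summit lay 82 bp upstream of it at 19836899, with a signal value of 213 and pooled rank 736. Replicate 1 gave 85.8 there, at rank 1187, and replicate 4 gave 125, at rank 564. Both replicates therefore placed it within the strongest 3960 of their lists. The other 9 pooled summits of bnl lay in the body, at ranks 7846 to 24212 and signal values from 59.4 down to 22.8. The pooled list held none over 21.2 kb of the gene, from 12.9 to 34.2 kb downstream of its start. The lists of the single replicates held 5 there, at ranks 15680 to 26704. Those at 34118 bp (replicate 4, rank 15680) and 33927 bp (replicate 1, rank 23711) lay beside the pooled summit at 34151 bp that ends the stretch.

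The sequence around the bnl summit is shown because it carries the letters GAGAGA, a site of GAGA factor, 4 times within 100 bp, 3 of them overlapping. It is the stretch chr3R:19836818-19836999 on the minus strand, the coding strand of bnl, and ends at the base before the transcript start. Capitals mark the sites, which read TCTCTC on this strand, and the summit is base 101.
bnl promoter summit: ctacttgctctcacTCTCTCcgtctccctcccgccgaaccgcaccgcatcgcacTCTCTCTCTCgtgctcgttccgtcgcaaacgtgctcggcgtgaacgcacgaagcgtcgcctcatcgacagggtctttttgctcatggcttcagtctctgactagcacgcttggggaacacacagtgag

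The receptor gene btl (FBgn0285896, 3L, 14075772 to 14083229, plus strand) was the only member with no summit in any of the 4 lists. Its 2 starts lay 3279 and 4572 bp from the nearest pooled summit, at 14072493, which ranked 28931 with a signal value of 19. Among protein-coding genes 69.1% held a pooled summit, and among the 2458 that are at least as long as btl 85.0% did. The nearest IDR summit lay 16653 bp beyond the gene and its upstream stretch. Of the 10311 protein-coding genes without an IDR summit, 40.5% lay at least that far from one.

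The adaptor gene stumps (FBgn0020299, 3R, 14577217 to 14608079, plus strand, 30.9 kb) had an IDR summit that was nearer to another gene. It lay at 14575986, 1231 bp upstream of the stumps start and 99 bp from the start of CG7987, a divergent gene whose start is 1330 bp from that of stumps. Its signal value of 94.8 and pooled rank of 3741 made it the weakest of the 12. Replicate 1 gave 39.3 there, at rank 5690, and replicate 4 gave 49.1, at rank 3866. Only replicate 4 thus held it within its strongest 3960. At the upstream start of stumps itself a weaker pooled summit lay 9 bp into the transcript, with rank 6881 and a signal value of 64.6. The 4 other stumps starts had their nearest pooled summits at ranks 17356 to 27141, between 197 and 1297 bp away.

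The inhibitor gene sty (FBgn0014388, 3L, 3401153 to 3424935, minus strand, 23.8 kb) held 4 IDR summits, none within 500 bp of its own starts. This came to 15.5 per 100 kb of gene and upstream sequence, the highest density of the 10, with vvl next at 14.7. Over all protein-coding genes with an IDR summit, short ones included, the median was 21. The strongest sty summit lay deep in an intron at 3407675, with a signal value of 181 and pooled rank 1021. It was 10286 bp downstream of the nearer sty start and 4512 bp from the nearest start of any gene, that of mir-2282. Replicate 1 gave 97.9 there, at rank 879, and replicate 4 gave 84.3, at rank 1382, so this summit was strong in both. The other 3 were weaker and uneven. A summit at 3418822, 861 bp upstream of the start of sty-RB and inside the longer transcript, had a signal value of 104 and ranked 8679 in replicate 1 and 1427 in replicate 4. Summits at 3420529 (signal value 110) and at 3426415 (109, 1480 bp upstream of sty-RC) ranked 1698 and 2083 in replicate 1 but 6054 and 5447 in replicate 4. Each of these 3 was within the strongest 3960 of 1 replicate and outside it in the other. At the 2 sty starts the nearest pooled summits lay below the IDR threshold, at rank 10982 for sty-RB (19 bp away) and 5806 for sty-RC (498 bp away).

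The intronic sty summit is shown because it was the only one of the 12 with a full Ftz-F1 site within 100 bp. The site was sought on both strands as C or T, then CAAGG, C or T, C, and A or G. In chr3L:3407575-3407775, read on the minus strand, the capitals mark CCAAGGTCA, whose nearest base lies 75 bp from the summit at base 101.
sty intron summit: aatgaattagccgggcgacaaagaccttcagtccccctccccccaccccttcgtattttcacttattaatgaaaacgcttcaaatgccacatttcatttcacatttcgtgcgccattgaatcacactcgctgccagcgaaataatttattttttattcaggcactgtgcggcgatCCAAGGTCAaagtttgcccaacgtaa

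The effector gene pnt (FBgn0003118, 3R, 23290231 to 23346167, minus strand, 55.9 kb) held the strongest summit of the 10 genes. Its 4 annotated transcripts begin at 3 starts, and the summits differed between them. The strongest lay at 23295539, 301 bp upstream of the start shared by pnt-RC and pnt-RE, with a signal value of 221 and pooled rank 680. Replicate 1 gave 84.0 there, at rank 1246, and replicate 4 gave 142, at rank 429. At the start of pnt-RD, a summit lay 189 bp upstream at 23314504, with a signal value of 139.5 and pooled rank 1737, and ranked 1517 in replicate 1 and 2692 in replicate 4. At the start of the longest transcript, pnt-RB, the nearest pooled summit was 1 bp away but had a signal value of only 58 and rank 8136. Both internal starts of pnt thus had an IDR summit and the distal start did not.

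The remaining pnt IDR summits were intronic. One at 23332191 lay 13976 bp inside pnt-RB and 1612 bp from the nearest start of any gene, that of lncRNA:CR46090. It had a signal value of 162 and pooled rank 1277, and ranked 725 in replicate 1 and 2863 in replicate 4. The other lay at 23293257, 1981 bp downstream of the pnt-RC and pnt-RE start, with a signal value of 101 and pooled rank 3348, and ranked 4553 in replicate 1 and 2891 in replicate 4. The first was within the strongest 3960 of both replicates and the second of replicate 4 alone. The pooled list held 24 further pnt summits, at ranks 4181 to 29657. None of the pooled summits lay in the 15.1 kb from 35.5 to 50.6 kb downstream of the 5′ end, a stretch that ends at the strongest summit and in which replicate 4 listed 2 weak summits, at ranks 27002 and 29362.

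The promoter summits of pnt and 1 of its intronic summits are shown because they differ in the letters they carry. The sequences are chr3R:23295439-23295639 (the pnt-RC and pnt-RE start), chr3R:23314404-23314604 (the pnt-RD start) and chr3R:23332091-23332291 (the intron of pnt-RB), each on the minus strand with the summit at base 101. Capitals mark GAGAGA or its complement TCTCTC in the first and second, and in the third CGACCTT, the complement of AAGGTCG, which is a match to a shortened Ftz-F1 site (AAGG, C or T, C, and A or G).
pnt-RC and pnt-RE promoter summit: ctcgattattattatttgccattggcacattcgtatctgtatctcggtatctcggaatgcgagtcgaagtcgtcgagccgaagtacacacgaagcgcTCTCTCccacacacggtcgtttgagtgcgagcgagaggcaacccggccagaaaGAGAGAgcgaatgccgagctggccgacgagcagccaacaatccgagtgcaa
pnt-RD promoter summit: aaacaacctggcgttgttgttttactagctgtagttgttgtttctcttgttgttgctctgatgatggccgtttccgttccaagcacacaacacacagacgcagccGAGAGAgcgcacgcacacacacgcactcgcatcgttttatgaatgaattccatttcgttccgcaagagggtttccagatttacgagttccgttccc
pnt intron summit: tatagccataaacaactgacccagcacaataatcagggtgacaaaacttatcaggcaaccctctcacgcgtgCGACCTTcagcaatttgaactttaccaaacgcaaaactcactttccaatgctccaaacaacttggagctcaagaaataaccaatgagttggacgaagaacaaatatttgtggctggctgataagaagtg

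Of the transcription factor genes of tracheal fate, vvl had a strong promoter summit and trh had none in the IDR list. The single-start gene vvl (FBgn0086680, 3L, 6790158 to 6794941, plus strand, 4.8 kb) had its IDR summit 164 bp upstream of the start at 6789994, with a signal value of 207 and pooled rank 781. Replicate 1 gave 81.2 there, at rank 1335, and replicate 4 gave 123, at rank 585. No other pooled summit lay in vvl or its upstream stretch. In trh (FBgn0262139, 3L, 366524 to 392633, minus strand, 26.1 kb) the best pooled summit lay at 378153, 837 bp upstream of the start used by 5 of its 7 transcripts and in an intron of the longer ones. Its signal value was 80.4, at pooled rank 4937. The replicates were far apart there, at signal 22.3 (rank 12849) in replicate 1 and 54.3 (rank 3238) in replicate 4. In replicate 4 alone trh would thus count among genes with a summit in the strongest 3960. The nearest IDR summit lay 5093 bp beyond trh and its upstream stretch.

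The vvl promoter is shown for comparison with those of bnl and pnt: it holds no GAGAGA within 100 bp of the summit, and a shortened Ftz-F1 site, AAGGCCA, 26 bp from it. The sequence is chr3L:6789894-6790094 on the plus strand, with the site in capitals and the summit at base 101.
vvl promoter summit: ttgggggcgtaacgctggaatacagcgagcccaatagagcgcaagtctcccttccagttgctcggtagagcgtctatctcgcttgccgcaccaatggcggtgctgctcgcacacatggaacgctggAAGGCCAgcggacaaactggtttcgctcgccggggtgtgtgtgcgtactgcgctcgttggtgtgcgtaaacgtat

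Both genes of the fusion cells lacked an IDR summit. For esg (FBgn0287768, 2L, 15333866 to 15336138, plus strand, 2.3 kb), a zinc finger factor gene, the pooled list held 1 summit 128 bp upstream of the start, at rank 25632 with a signal value of 21.6. Replicate 1 listed 1 summit there, at rank 12804, and replicate 4 listed none. The nearest IDR summit lay 67140 bp away, and 10.1% of protein-coding genes without an IDR summit lay at least that far from one. The member dys was read as dysfusion, which the annotation names dysf, from its place among tracheal genes (FBgn0039411, 3R, 26076592 to 26098711, minus strand, 22.1 kb). Its best pooled summit lay 729 bp upstream of the gene at 26099440, with a signal value of 43.5 and pooled rank 11825. That summit ranked 9266 in replicate 1 and 17010 in replicate 4, outside the strongest 3960 of both. The name dys is also a synonym of Dys, the dystrophin gene, which held 2 IDR summits with a best pooled rank of 3256, so that reading would add a member with an IDR summit.

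Mmp1 (FBgn0035049, 2R, 24671294 to 24688184, minus strand, 16.9 kb) had 1 IDR summit, at 24684478 in an intron, 612 bp downstream of the innermost of its 3 starts, which 5 of its 10 transcripts use. Its signal value was 143 and its pooled rank 1650. It was the most even of the 12 between replicates, at signal 73.4 (rank 1666) in replicate 1 and 76.3 (rank 1736) in replicate 4. The replicate 4 summit lay 122 bp from the pooled one. The 3 starts of Mmp1 each had a pooled summit within 500 bp, below the IDR threshold, at ranks 8725, 9515 and 25072.

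The replicates ranked the 12 summits unevenly. Each IDR summit was paired with the strongest summit of each replicate within 200 bp, and all 12 had one in both. The worse of both ranks divided by the better had a median of 2.19 over the 12, from 1.04 at Mmp1 to 6.08 at the sty-RB summit, and a median of 1.77 over the 3905 IDR summits of the whole list with both partners. No test was made of that difference. In 7 of the 12 (58.3%) both ranks were 3960 or better, against 67.1% of all IDR summits. Of the 4 summits at a member's own promoter, 3 ranked higher in replicate 4. Of the 6 in introns 4 ranked higher in replicate 1, among them Mmp1 with its ratio of 1.04. The same counts were not made over all IDR summits, so no contrast between promoters and introns is drawn from them. Of all 85 pooled summits of the 10 genes, 52 (61.2%) had a summit of both replicates within 200 bp, close to the 59.6% of pooled summits in protein-coding genes.

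**Figure D2:**
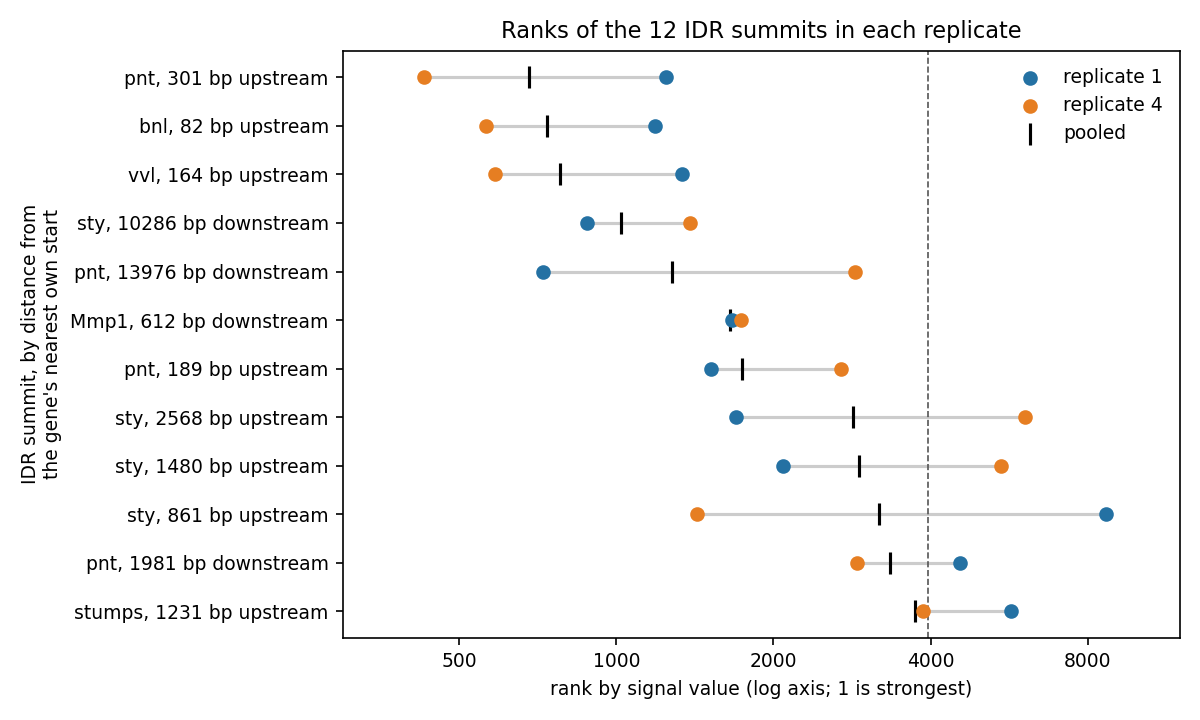
Ranks by signal value (log axis, 1 is strongest) of the 12 IDR summits in replicate 1 (blue), replicate 4 (orange) and the pooled list (black bar), with the rank of 3960 dashed. The promoter summits of bnl, vvl and the pnt-RC and pnt-RE start rank from 429 to 1335 in both replicates, while 3 of the 4 sty summits cross the dashed line in 1 replicate.

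The 12 summits were split between promoters and introns. Of the 12, 5 (41.7%, 95% Wilson interval 19.3 to 68.0, counting error only) were within 500 bp of a transcript start, against 61.0% of all IDR summits. The interval takes the summits as independent, though sty and pnt held 4 each, so it cannot decide whether the shares differ. Of the 5 promoter summits, 4 were at the members' own starts, 1 each in bnl and vvl and 2 in pnt. The remaining one was the summit near CG7987. Another 6 were in introns and 1, upstream of sty, was between genes. The shares of all IDR summits in introns and between genes were not counted, so no contrast is drawn from these. Counted from the starts, 4 of the 22 starts of the 10 genes (18.2%) had an IDR summit within 500 bp, and 17.3% of all starts of protein-coding genes did. A pooled summit lay within 500 bp of 15 of the 22 (68.2%), against 58.2%. The pooled list holds background regions too. At these 15 starts the nearest summits had deposited −log10 q-values from 0.487, at stumps-RE, up to the list's highest of 4.18, as at bnl. The 3 strongest summits, at bnl, vvl and the pnt-RC and pnt-RE start, were also the 3 with peaks narrower than the usual 444 bp, at 161, 212 and 210 bp. Of all IDR peaks, 28.5% were narrower than 444 bp. Their windows of 201 bp had a base composition of 60.7%, 59.2% and 54.2% G and C, where the median was 49.2% for the 12 and 46.8% for the list.

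In sequence, the 12 windows held few full Ftz-F1 sites. One of 12, in sty, had the site, and 6.54% of all IDR windows did. The same window was the only one with the strict form CAAGGTCA, found in 4.02% of IDR windows. The shortened site overlaps both and was found in 4 windows, in sty, vvl, pnt and Mmp1, and in 18.5% of all. GAGAGA was found in 3 windows, at bnl and both pnt promoters, and in 15.7% of all. Searched the same way, TATCGATA (the DREF site) and GGTCACACT (the M1BP element) were in none of the 12 windows, and in 3.79% and 3.43% of all. TACGTG, bound by Trachealess with its partner Tango, was in none either, and in 5.40% of all. A match or its absence describes these letters only.

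Set against all genes, the members spread from the upper part to the end of the range. The rank of a gene's strongest pooled summit was 680 for pnt, 736 for bnl, 781 for vvl and 1021 for sty, and between 5.48% (pnt) and 8.32% (sty) of protein-coding genes had a rank as high. Among genes of at least 20 kb, 11.5% ranked as high as pnt and 16.1% as high as sty. Mmp1 (1650) and stumps (3741) followed, then trh (4937), dys (11825), esg (25632) and btl, which had none. The median over the 10 genes was 2695.5 with btl placed last, against 10729 over all protein-coding genes and 4322 over those of at least 20 kb. Per 100 kb of gene and upstream sequence the members held 4.74 IDR summits, against 4.44 over all protein-coding genes and 2.27 over those of at least 20 kb, where a summit in overlapping genes counts for each. Taken per gene with an IDR summit, the median was 6.1 per 100 kb over the members and 21 over all such protein-coding genes. A short gene that holds any summit has a high value per 100 kb by construction. The members had a median length of 22951 bp, against 2166 bp for protein-coding genes. No such median was taken over genes of at least 20 kb, so no contrast is drawn from these medians. The threshold of the IDR list fell between the stumps summit at rank 3741 and further pooled summits in sty (rank 4126, signal value 89.6) and pnt (4181, 88.9) and that in trh.

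**Figure D3:**
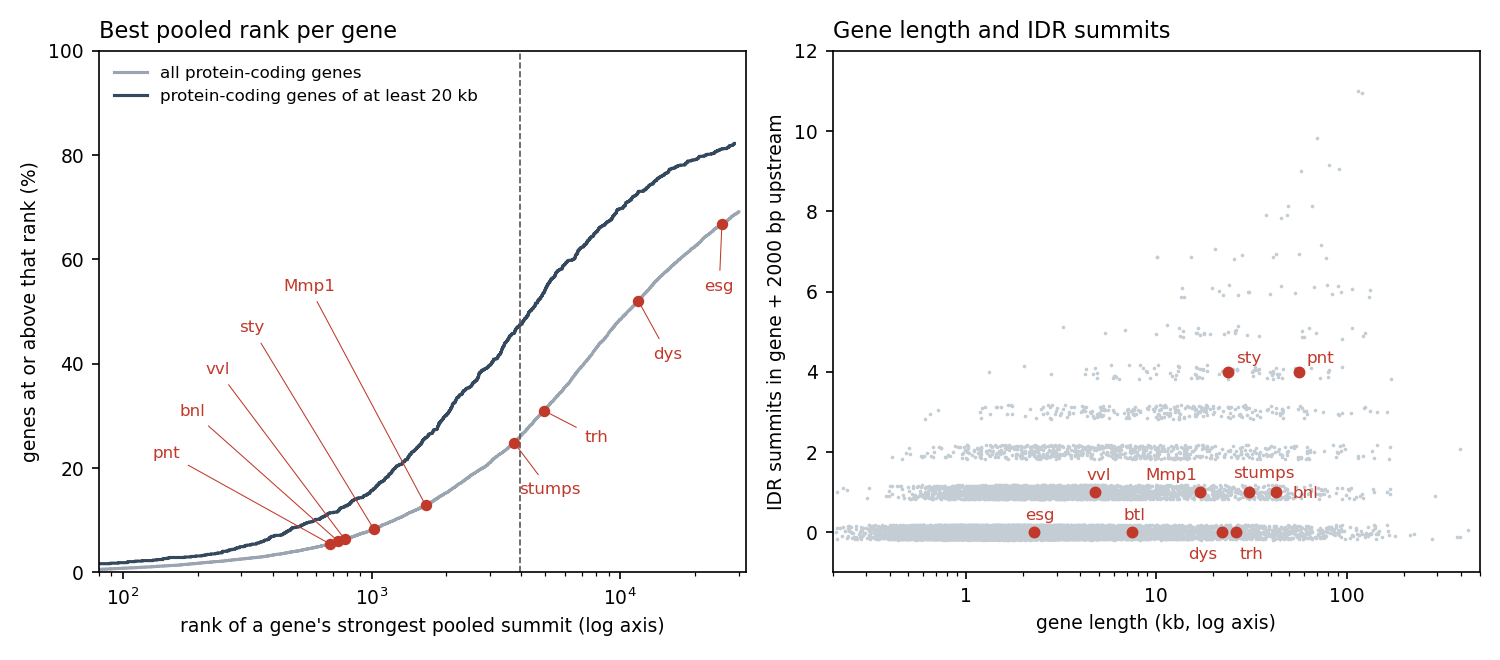
Left, the share of genes (%) whose strongest pooled summit ranks at least as high as the rank on the x axis (log axis), for all protein-coding genes (grey) and those of at least 20 kb (dark), with the members as red points on the grey curve and the rank of 3960 dashed; btl has no summit and is not drawn. Right, gene length (kb, log axis) against the number of IDR summits, with members in red, other genes in grey jittered vertically, and 6 genes with more than 12 summits outside the plot; sty and pnt stand at 4 summits, and trh (26.1 kb) and dys (22.1 kb) at 0.

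Other genes of the pathway also held IDR summits. Of 15 further genes of FGF signalling and the Ras and MAP kinase cascade, 10 (66.7%) held one, against 26.1% of all protein-coding genes. The genes of this list, and of the tracheal list that follows, were chosen with earlier results of these data known. The highest signal values were those of Raf, the MAP kinase kinase kinase (385, in an intron, pooled rank 177), htl, the second FGF receptor of the fly, which acts in mesoderm (284, 318 bp upstream of its start, rank 359), edl, a modulator of Pointed (241, in an intron, rank 549), and ths, an FGF ligand of htl (211, in an intron, rank 746). The receptor genes htl (7769 bp) and btl (7458 bp) are of similar length, and the htl summit ranked 290 in replicate 1 and 527 in replicate 4 where btl had no listed summit. Those without one were Ras85D, ksr, rl, Dsor1 and Sos. Of 32 further tracheal genes 16 (50%) held an IDR summit, against the same 26.1%, led by rib, a nuclear factor of tube morphogenesis (268, promoter, rank 411), sima, the hypoxia-inducible factor alpha subunit (227, intron, rank 619), Hph, the prolyl hydroxylase that marks it for degradation (221, rank 678), and trn, a leucine-rich repeat receptor (179, promoter, rank 1045). Long genes were frequent there too, with 5 of the 15 and 13 of the 32 at 20 kb or more. Of those, 4 of 5 and 8 of 13 held an IDR summit, against 47.6% of all protein-coding genes of that length.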

How the data were processed

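The authors deposited peak lists in narrowPeak format. Per the text listings deposited beside the lists, the replicate and pooled lists hold peaks and background regions called with a control library, and the thresholded list was made from them by IDR. The signal values and −log10 q-values are as deposited by the authors. No source used here names the peak caller, its settings or the threshold of the IDR step. Read depth is unknown, and both replicates were labelled as biological. Lists in dm3 were not used.

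Summits (peak start plus the deposited offset) were placed on arms 2L, 2R, 3L, 3R, 4 and X with the Ensembl release 115 annotation (BDGP6.54) and the release 6 assembly, which share dm6 coordinates. Transposable element models were left out. Positions are 1-based. Promoter means within 500 bp of any transcript start, and motifs were sought on both strands within 100 bp of a summit. The symbol dys was matched to dysf, and 2 list symbols to a current name (dpy, RasGAP1). Printed sequences leave out annotated exons and arm 2R. Python 3.11.15 with pandas 2.3.3, scipy 1.17.1 and matplotlib 3.10.9 was used, and placement and motif code was tested on simulated data.

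The members and both lists of further genes were chosen with earlier results of these data known. All values are descriptions, with no test. Named were all members and up to 4 genes per list by signal value. With 2 replicates of 1 group there is no comparison of conditions. Alternatives changed the gene assignment, windows, motif, threshold and replicate.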

Additional observations from a re-analysis of the deposited data

How the results depend on the processing

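The number of members with an IDR summit, 6 (26.1% of all protein-coding genes), was 3 with gene bodies alone (12.9%), since the summits of bnl, stumps and vvl lie upstream, and ranged from 5 to 7 with 1 replicate left out (trh entered with replicate 4 alone, and stumps left with replicate 1 alone), where 25.3% and 26.7% of all genes held one. It was 6 with 5000 bp upstream (33.5%), 5 by nearest protein-coding start (18.9%) and 5 in the strongest 1980 IDR peaks (15.2%). The number of summits, 12, was 7 in the strongest 1980, 8 to 14 by other gene assignments, and 10 to 12 with a replicate left out. The promoter share stayed between 33.3% and 58.3%, at promoter windows of 250 and 1000 bp, where the share of all IDR summits was 52.7% and 70.3%. The share with a full Ftz-F1 site, 8.33%, was 0% within 50 bp (4.55% of all IDR summits). It was 10% without replicate 4 and 16.7% without replicate 1, against 6.26% and 6.46% over all summits. The median best rank, 2695.5, was 7363.5 with bodies alone, and 2487 to 3678 with a replicate left out. Summits with a partner in both replicates rose from 58.3% to 100% with no rank limit, and over all IDR summits from 67.1% to 98.6%. With few summits, single ones move each share. No paired analysis was possible because there is 1 group and no test.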

Other observations

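Upstream of sty, beyond the 2000 bp searched, 3 further IDR summits had a sty start as their nearest protein-coding start. They lay 6542, 8037 and 12664 bp beyond the gene, in introns of eIF5B, a translation initiation factor gene, with signal values of 157, 95.6 and 153. They ranked 1115, 2403 and 1527 in replicate 1 and 2036, 6738 and 1533 in replicate 4. No other member gained an IDR summit by nearest start. In the tracheal list, sna, a zinc finger gene of the family of esg, had no pooled summit, and wor, another, had its best at rank 22883.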
